A study of Mus musculus with 4 samples.

Results

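The genes of the NRF2 antioxidant response and of heme breakdown were read in RNA-seq libraries of hematopoietic stem cells (HSC) and common lymphoid progenitors (CLP) from wild-type (WT) and GRK6-/- mice. The set holds 10 genes out of 12417 that could be followed across the tables. Its members were chosen by name, from NRF2 and its known regulators, partners and targets. They are the transcription factor genes Nfe2l2 and Nfe2l1, the inhibitor gene Keap1, the repressor genes Bach1 and Bach2, the partner genes Mafk and Mafg, and the enzyme genes Hmox1, Hmox2 and Nqo1. A total of 8 members had a row in the WT HSC table and 10 in each of the other tables, so 8 had a value in all 4 libraries.

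There was 1 library per population and genotype, from bone marrow of C57BL/6 mice, which the study describes as 8 to 12 weeks old, and the labels name no treatment. HSC had been sorted as Lin-c-kit+sca-1+ cells, a gate that also takes in multipotent progenitors, and CLP as cells of that phenotype that were Il-7Ra+ as well. Between 13 and 15 cells from 3 to 4 mice were used per library, the cDNA of each cell was amplified singly by 20 and then 10 PCR cycles, and the cDNA was pooled. GRK6-/- mice carry a deletion of exons 3 to 9 of Grk6. With no replicates, the spread between mice or between pools is unknown, and no test was made. A fit with genotype and population as additive terms would leave 1 residual degree of freedom and was not run. That degree of freedom would hold the difference in genotype effect between the populations, not the spread between replicates. Every difference given here is between single libraries.

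Each value is an FPKM, fragments per kilobase of transcript scaled to the mapped fragments of the library, as the authors deposited it. Differences are log2 ratios of FPKM + 1, which understate changes of weakly expressed genes, and a gene was counted as called when this ratio was at least 1 in size, a 2-fold change. From steps in the lowest values, the tables were estimated to be scaled to about 2910000 (WT) and 3810000 (GRK6-/-) fragments in HSC and 4360000 (WT) and 2790000 (GRK6-/-) in CLP. The study describes far more reads, so these estimates may be too low. From them, the fragments behind each member were estimated. The 95% intervals given with them are exact and cover counting error only, since PCR copies are not independent molecules. Grk6 itself was at 42.7 FPKM (WT) and 89.4 (GRK6-/-) in HSC and 26.9 (WT) and 57.6 (GRK6-/-) in CLP. The targeted gene was thus higher in both libraries labelled GRK6-/-, 1 value per gene does not show which exons were read, and the genotypes below are those of the labels. Il7r, the receptor gene of the CLP gate, had no row in WT HSC and was at 1.08 FPKM in GRK6-/- HSC, against 120 and 75.1 in the WT and GRK6-/- libraries of CLP. The 8 CLP and early lymphoid markers did not all follow the gate. Of these, 4 (WT) and 6 (GRK6-/-) had a row in HSC and 7 in each CLP library. Rag2 was at 94.5 FPKM in WT CLP and had no row in GRK6-/- CLP. Notch1 was at 5.54 in WT HSC and had no row in WT CLP. Kit was present in all 4 libraries, at 26.2 to 81.8 FPKM. Other stem markers did not share 1 pattern. Procr had no row in WT HSC, and Flt3 was at 54.5 (WT) and 23.8 (GRK6-/-) in HSC and 124 and 219 in CLP. Ly6a, which encodes Sca-1, was named only within a joint row of several genes in WT HSC and could not be read.

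NRF2, encoded by Nfe2l2, is a transcription factor that is made constantly and destroyed constantly, because KEAP1 presents it to a ubiquitin ligase. Oxidants and electrophiles modify KEAP1, NRF2 then accumulates, pairs with a small MAF protein and activates genes through antioxidant response elements in DNA. BACH1 and BACH2 pair with the same small MAF proteins and repress such elements, and heme binding releases BACH1 from DNA. The gene of heme oxygenase 1, which opens the heme ring, is the best known target of both. In blood stem cells NRF2 is known for its part in quiescence and stress resistance, and BACH2 for its part in early B cell development.

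The DNA element that links the members was looked for in the mm9 genome, in the 10000 bp before the annotated start of each gene (GENCODE vM1, the coding transcript with the longest coding sequence). A core of TGACNNNGC and an extended form, TGACTCAGC, which contains the core and can also be bound by other leucine zipper factors, were searched on both strands. The core was present before 93.9% of 22366 protein-coding genes and the extended form before 13.8%. Hmox1 held 11 matches to the core, a number reached by 0.237% of genes, and 4 matches to the extended form, a number reached by 0.0268%, and no other member held the extended form. Nqo1 held 7 matches to the core, Mafk 6, Nfe2l2, Bach1, Bach2 and Mafg 3 each, Nfe2l1 2, Hmox2 1 and Keap1 none. The start used for Mafk, chr5:140273468, lies inside the locus whose FPKM is given below. Its matches at 36, 403, 2444 and 3901 bp therefore fall within that locus. The start used for Bach2, chr4:32325779, lies far before the locus given below, which begins at 32504410. The counts of these 2 genes are thus not for the region just before the locus read. The 4 extended matches before Hmox1 are shown because they lie in a close group of 3 and a single one, with the match in capitals, 5′ to 3′ on the strand of the gene (plus strand of chromosome 8, mm9). They are at chr8:77607838-77607866, chr8:77607866-77607894, chr8:77607895-77607923 and chr8:77613639-77613667, and the matches begin 9642, 9614, 9585 and 3841 bp before the start of Hmox1.
Hmox1 match at 9642 bp: tgccttttctGCTGAGTCAaggtccgggg
Hmox1 match at 9614 bp: gctgtgtgacGCTGAGTCAcggtcccgag
Hmox1 match at 9585 bp: gtctgttttcGCTGAGTCAtggttcccgt
Hmox1 match at 3841 bp: gacagattttGCTGAGTCAccctctgttc

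Within 1000 bp of the start, the core was found before 29.3% of genes. There it was found before Nfe2l2, Mafg and Hmox2, and before the start used for Mafk, where the matches lie inside the Mafk locus. The matches of Nfe2l2, the activator's own gene, and of Mafg, a partner gene, are shown for comparison, on the strand of each gene, which is the minus strand for both. They lie at chr2:75542942-75542970 and chr11:120495065-120495093 of mm9, and begin 262 and 169 bp before the start. A match is a description of the letters and does not show that a factor binds there.
Nfe2l2 match: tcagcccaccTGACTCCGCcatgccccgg
Mafg match: ctctgcaggaGCACGGTCAacccggcgag

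**Figure D1:**
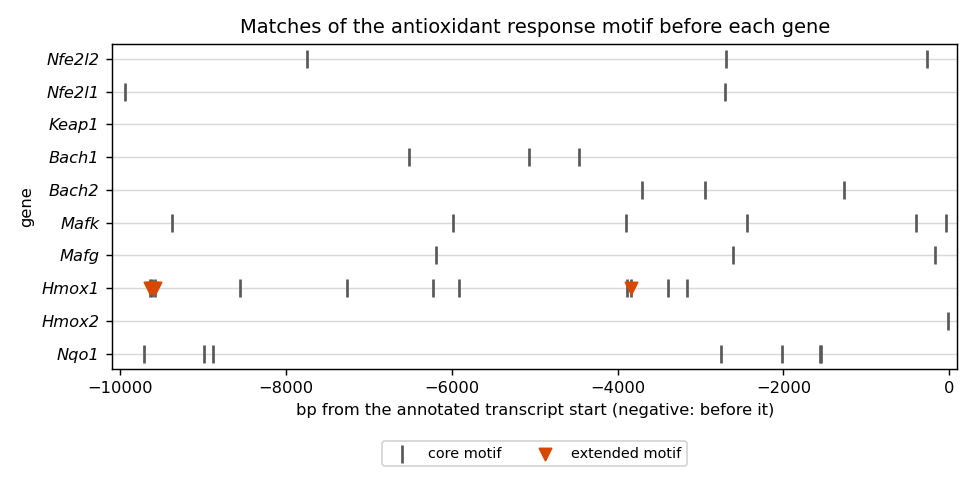
Positions of the antioxidant response motif in the 10000 bp before the annotated start of the transcript used for each member, in bp on the x axis. For Mafk this start lies inside its locus. Grey ticks are matches to the core motif and orange triangles matches to the extended motif, of which Hmox1 alone holds 4, with 3 of them between 9585 and 9642 bp before its start.

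Nfe2l2, the gene of NRF2 (Entrez Gene 18024, chr2:75513576-75542698 in mm9, minus strand), was more abundant in HSC than in CLP in both genotypes. It was at 34.2 FPKM (WT) and 48.8 (GRK6-/-) in HSC and 8.84 (WT) and 14.4 (GRK6-/-) in CLP, or about 246, 460, 95 and 100 fragments. Both HSC libraries were above both CLP libraries. The log2 ratio of CLP over HSC was -1.84 in WT and -1.69 in GRK6-/-, both past the 2-fold threshold. Between the genotypes the ratio was 0.50 in HSC and 0.65 in CLP, with the library labelled GRK6-/- higher in both populations and neither ratio past the threshold. The 95% counting interval of the log2 FPKM ratio, taken without the added 1, was 0.29 to 0.74 in HSC and 0.30 to 1.14 in CLP. In such pools, fewer cells of one kind and less RNA per cell cannot be told apart, here and in every comparison that follows.

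Nfe2l1 (Entrez Gene 18023, chr11:96678728-96691282, minus strand) encodes NRF1, an NRF2 relative held in the endoplasmic reticulum that induces proteasome genes. Its FPKM was 14.6 (WT) and 12.4 (GRK6-/-) in HSC and 27.1 (WT) and 8.83 (GRK6-/-) in CLP. WT CLP was the highest library and GRK6-/- CLP the lowest. The log2 ratio of GRK6-/- over WT was -1.51 in CLP, a call, with a counting interval of -2.0 to -1.24 for the FPKM ratio. In HSC it was -0.22, where the counting interval of -0.60 to 0.13 included 0.

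The balance of the related pair differed between libraries. Nfe2l2 made up 70.1% of the summed FPKM of Nfe2l2 and Nfe2l1 (WT) and 79.8% (GRK6-/-) in HSC and 24.6% (WT) and 62.0% (GRK6-/-) in CLP. WT CLP was the one library in which Nfe2l1 exceeded Nfe2l2.

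Keap1, the gene of the NRF2 inhibitor (Entrez Gene 50868, chr9:21034174-21043776, minus strand), was the single member called between genotypes in HSC. Its FPKM was 25 (WT) and 66.9 (GRK6-/-) in HSC and 25.7 (WT) and 34.4 (GRK6-/-) in CLP, or about 325, 1139, 501 and 429 fragments. The HSC library labelled GRK6-/- stood above the other 3. The log2 ratio of GRK6-/- over WT was 1.39 in HSC, larger in size than that of 75.3% of all genes, and 0.41 in CLP. Both WT libraries were close, with a log2 ratio of 0.04 between CLP and HSC and a counting interval of -0.16 to 0.25. On this per-length scale the ratio of Nfe2l2 to Keap1 was 1.37 (WT) and 0.729 (GRK6-/-) in HSC and 0.344 (WT) and 0.420 (GRK6-/-) in CLP. Nfe2l2 exceeded its inhibitor's RNA in WT HSC alone.

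Bach1 (Entrez Gene 12013, chr16:87699199-87733591, plus strand), the broadly expressed heme-sensing repressor, was at 8.76 FPKM (WT) and 5.31 (GRK6-/-) in HSC and 8.15 (WT) and 3.92 (GRK6-/-) in CLP. Both WT libraries were above both libraries labelled GRK6-/-. The log2 ratios of -0.63 in HSC and -0.90 in CLP did not reach the threshold, and the counting intervals of the FPKM ratios were -1.07 to -0.36 and -1.49 to -0.65. Between populations Bach1 had a ratio of -0.09 in WT and -0.36 in GRK6-/-, with counting intervals that included 0 in both. The ratio of Nfe2l2 to Bach1, the activator to the repressor of the same elements, was 3.90 (WT) and 9.18 (GRK6-/-) in HSC and 1.08 (WT) and 3.68 (GRK6-/-) in CLP.

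Bach2 (Entrez Gene 12014, chr4:32504410-32673083, plus strand), the lymphoid repressor, was read mainly in CLP. It had no row in WT HSC and was at 0.297 FPKM in GRK6-/- HSC, while CLP held 3.09 (WT) and 5.04 (GRK6-/-), or about 10, 119 and 125 fragments. The transcript length behind these fragments is that of the transcript that starts far before this locus, so they are less certain. Both CLP libraries were above both HSC libraries. The floor used for a count of 0, 3 fragments, was 0.116 FPKM for a transcript of its length in WT HSC, and the upper end of the exact 2-sided interval of such a count is higher, at 3.69 fragments. The log2 ratio of CLP over HSC was 2.03 in WT, with the missing row counted as 0, and 2.22 in GRK6-/-. Without the added 1 the ratio in GRK6-/- was 4.09, with a counting interval of 3.16 to 5.19. Between genotypes in CLP the ratio was 0.56. Bach2 made up 5.29% of the summed FPKM of Bach2 and Bach1 in GRK6-/- HSC, while in CLP its share was 27.5% (WT) and 56.3% (GRK6-/-). Most B lineage markers were also read mainly in CLP. Of 9 on the list, 1 (WT) and 3 (GRK6-/-) had a row in HSC and 8 in each CLP library, and their summed FPKM was 41.9 (WT) and 35.5 (GRK6-/-) in HSC and 452 (WT) and 1656 (GRK6-/-) in CLP. Vpreb1, a gene of the surrogate light chain of early B cells, had no row in WT HSC and was at 0.423 FPKM in GRK6-/- HSC, while CLP held 16.4 (WT) and 246 (GRK6-/-). Between genotypes in CLP, 6 of 8 of these markers were called higher and 1 lower, beside 26.6% and 23.4% of all genes. The lower one was Vpreb2, at 70.6 FPKM in WT and 4.75 in GRK6-/-. Cd79b did not follow the populations in WT, with 41.9 FPKM in HSC and 39.1 in CLP. The part of B lineage cells in the Bach2 values was not tested.

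The small MAF genes, whose products pair with NRF2 and with the BACH proteins, differed from each other. Mafk (Entrez Gene 17135, chr5:140267490-140278606, plus strand) was at 16.1 FPKM (WT) and 7.75 (GRK6-/-) in HSC and 10.4 (WT) and 3.47 (GRK6-/-) in CLP. As with Bach1, both WT libraries were above both libraries labelled GRK6-/-. The log2 ratio was -1.35 in CLP, a call, and -0.97 in HSC, just inside the threshold, with counting intervals of -2.21 to -1.01 and -1.46 to -0.67 for the FPKM ratios. Mafg (Entrez Gene 17134, chr11:120489667-120494861, minus strand) had the narrowest range of the members, with 24.6 FPKM (WT) and 34.2 (GRK6-/-) in HSC and 27.8 (WT) and 23.2 (GRK6-/-) in CLP. Its highest library was 1.48 times its lowest, and 10.3% of all genes had a smaller log2 range. Mafk made up 39.6% (WT) and 18.5% (GRK6-/-) of the pair in HSC and 27.3% (WT) and 13.0% (GRK6-/-) in CLP, so Mafg was the more abundant partner gene in all 4 libraries.

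**Figure D2:**
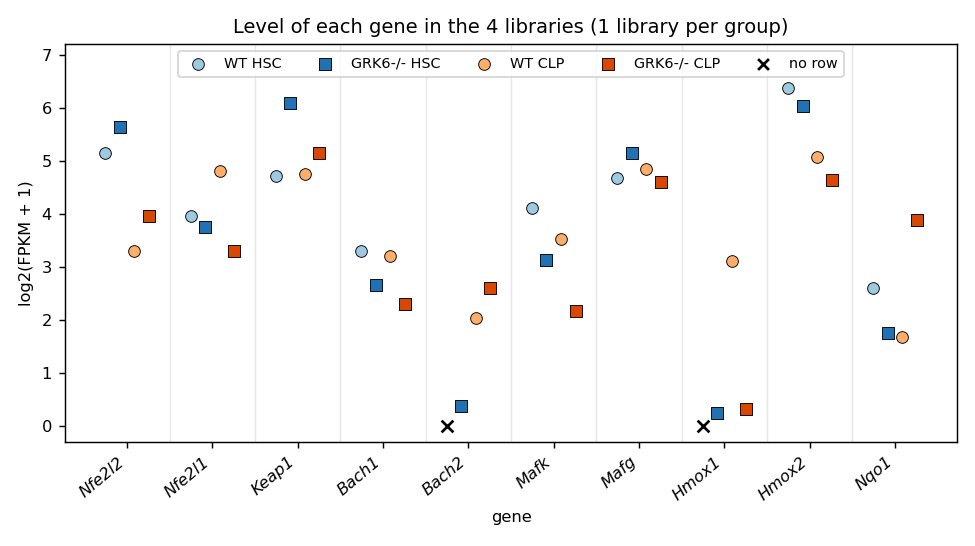
Level of each member as log2(FPKM + 1) on the y axis, with 1 point per library and no error bars because each group had 1 library. Circles are WT, squares are GRK6-/-, blue is HSC, orange is CLP and a cross marks a gene without a row. Nfe2l2 and Hmox2 are higher in both HSC libraries, Bach2 in both CLP libraries, and Hmox1 stands at 7.58 FPKM in WT CLP against 0.244 or less elsewhere.

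Hmox1, the gene of the inducible heme oxygenase (Entrez Gene 15368, chr8:77617517-77624492, plus strand), was read above the 3-fragment floor in WT CLP alone. It had no row in WT HSC and was at 0.177 FPKM in GRK6-/- HSC, while CLP held 7.58 (WT) and 0.244 (GRK6-/-). These values stood for about 1.1, 53 and 1.1 fragments, with counting intervals of 0.0253 to 5.57, 39.7 to 69.3 and 0.0253 to 5.57. The same floor of 3 fragments was 0.643 FPKM in WT HSC, so the 2 HSC libraries and the GRK6-/- CLP library could not be told apart at the estimated depth. In CLP the log2 ratio of GRK6-/- over WT was -2.79, larger in size than that of 86.5% of all genes. Without the added 1 the log2 FPKM ratio was -4.96, with a counting interval of -10.4 to -2.55. This is the gene with the 4 extended matches shown above. Its repressor gene Bach1 was at 8.15 FPKM in WT CLP and 3.92 in GRK6-/- CLP, and the activator gene Nfe2l2 at 8.84 and 14.4.

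Macrophages are a known source of heme oxygenase 1, and myeloid and macrophage markers were therefore read beside it. Of the 17 on the list, 13 had a row in each of WT HSC, GRK6-/- HSC and WT CLP and 10 in GRK6-/- CLP, with summed FPKM of 17906, 11378, 9457 and 7865. Most of each sum came from granule genes, such as Elane at 7008, 5000, 3803 and 3516 FPKM. Csf1r, the macrophage growth factor receptor gene, was at 0.889, 11.6 and 16.6 FPKM in WT HSC, GRK6-/- HSC and WT CLP and had no row in GRK6-/- CLP. Emr1, the gene of F4/80, had no row in WT HSC and was at 4.75, 3.17 and 2.0 FPKM in GRK6-/- HSC, WT CLP and GRK6-/- CLP. The other macrophage genes of the list did not share 1 pattern over the libraries, but in CLP all except Vcam1 were lower in GRK6-/-. Cd14 and Itgam were at 8.48 and 3.21 FPKM in WT HSC and 6.23 and 2.08 in WT CLP, without a row in GRK6-/- CLP. Cd68 and Lyz2 had a row in every library. In CLP Cd68 was at 43.9 (WT) and 26.4 (GRK6-/-) and Lyz2 at 204 and 110, neither a call. Vcam1 had no row in WT CLP and was at 26.8 in GRK6-/- CLP. Over the whole list, 2 of 14 markers were called higher and 6 lower in GRK6-/- HSC, and 2 of 15 higher and 5 lower in GRK6-/- CLP. Of all genes, 19.3% were called higher and 18.0% lower in HSC, and 26.6% and 23.4% in CLP. The part of such cells in the Hmox1 value was not tested.

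Hmox2 (Entrez Gene 15369, chr16:4726361-4766249, plus strand), which encodes the constitutive heme oxygenase, was the most abundant member in WT HSC. It was at 81.5 FPKM (WT) and 64.6 (GRK6-/-) in HSC and 32.5 (WT) and 24.0 (GRK6-/-) in CLP. Both HSC libraries were above both CLP libraries, with log2 ratios of CLP over HSC of -1.30 in WT and -1.39 in GRK6-/-. The ratios between genotypes were smaller, at -0.33 in HSC and -0.43 in CLP. The locus given in WT HSC ran on to 4768308, while in the other libraries the overlapping gene 5730403B10Rik had its own row at 9.03 to 16.7 FPKM, so part of the WT HSC value may belong to that gene. Hmox1 made up 18.9% of the summed heme oxygenase FPKM in WT CLP, 0.274% in GRK6-/- HSC and 1.01% in GRK6-/- CLP.

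Nqo1 encodes a quinone reductase that is a standard readout of NRF2 activity (Entrez Gene 18104, chr8:109912125-109927105, minus strand). Its FPKM was 5.03 (WT) and 2.34 (GRK6-/-) in HSC and 2.20 (WT) and 13.6 (GRK6-/-) in CLP, or about 23, 14, 15 and 59 fragments. The GRK6-/- CLP library stood above the other 3. The log2 ratio of GRK6-/- over WT was 2.19 in CLP, with a counting interval of 1.78 to 3.54 for the FPKM ratio, and -0.85 in HSC, where the interval of -2.18 to -0.09 nearly reached 0. Hmox1 and Nqo1, both textbook NRF2 targets, thus differed in opposite directions between the CLP libraries.

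**Figure D3:**
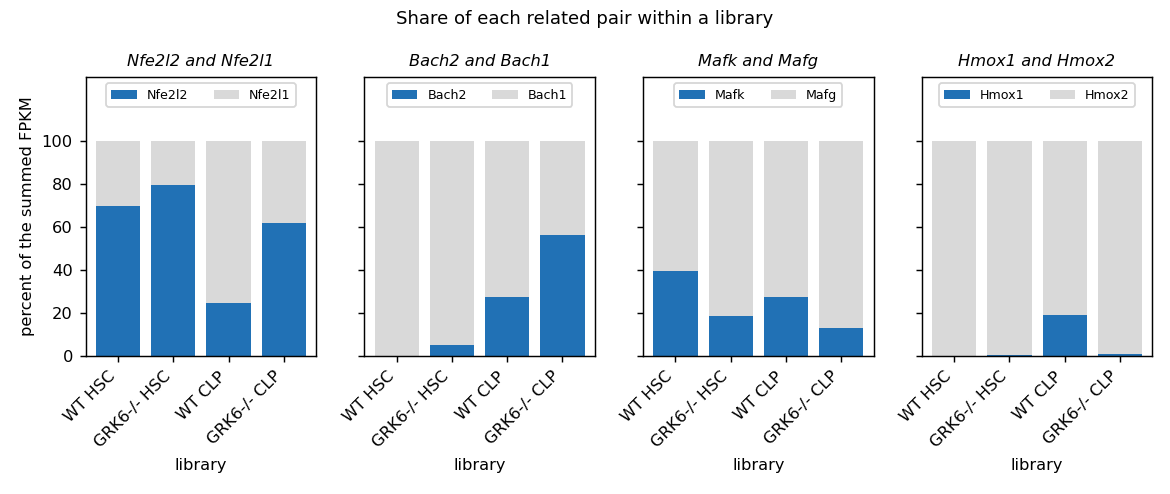
Share of each related pair within a library, as percent of the summed FPKM of both genes on the y axis, with 1 bar per library and the first gene of the pair in blue. Nfe2l2 falls below Nfe2l1 in WT CLP only, at 24.6%, Bach2 exceeds Bach1 in GRK6-/- CLP only, at 56.3%, and Hmox1 reaches 18.9% in WT CLP.

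Over the whole set, 1 of 10 members was called between genotypes in HSC, against 37.4% of 11624 genes. The call, Keap1, was higher in GRK6-/-, as were 19.3% of all genes, and no member was lower, against 18.0%. In CLP, 4 of 10 members were called, against 50.0% of 11191 genes. Nqo1 was higher, and Nfe2l1, Mafk and Hmox1 were lower, against 26.6% and 23.4% of all genes. The median log2 ratio of the members was 0.01 in HSC and -0.34 in CLP, beside 0.05 in both for all genes. The members were therefore called no more often than genes at large in either population. Nfe2l2, Keap1 and Bach2 were higher in GRK6-/- in both populations, Nfe2l1, Bach1, Mafk and Hmox2 were lower in both, and Mafg, Hmox1 and Nqo1 differed in sign. Of the first 3, Bach2 in HSC rests on about 10 fragments against none.

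Between populations, 4 of 10 members were called in WT, against 46.5% of 11202 genes, and 4 of 10 in GRK6-/-, against 45.6% of 11708 genes. In WT, Bach2 and Hmox1 were higher in CLP and Nfe2l2 and Hmox2 lower, where 21.8% of all genes were higher and 24.7% lower. In GRK6-/-, Bach2 and Nqo1 were higher in CLP and Nfe2l2 and Hmox2 lower, where 22.3% of all genes were higher and 23.4% lower. Nfe2l2, Hmox2 and Bach2 were called with the same sign in both genotypes. The median log2 ratio of the members was -0.03 in WT and -0.49 in GRK6-/-, beside -0.08 for all genes in each.

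**Figure D4:**
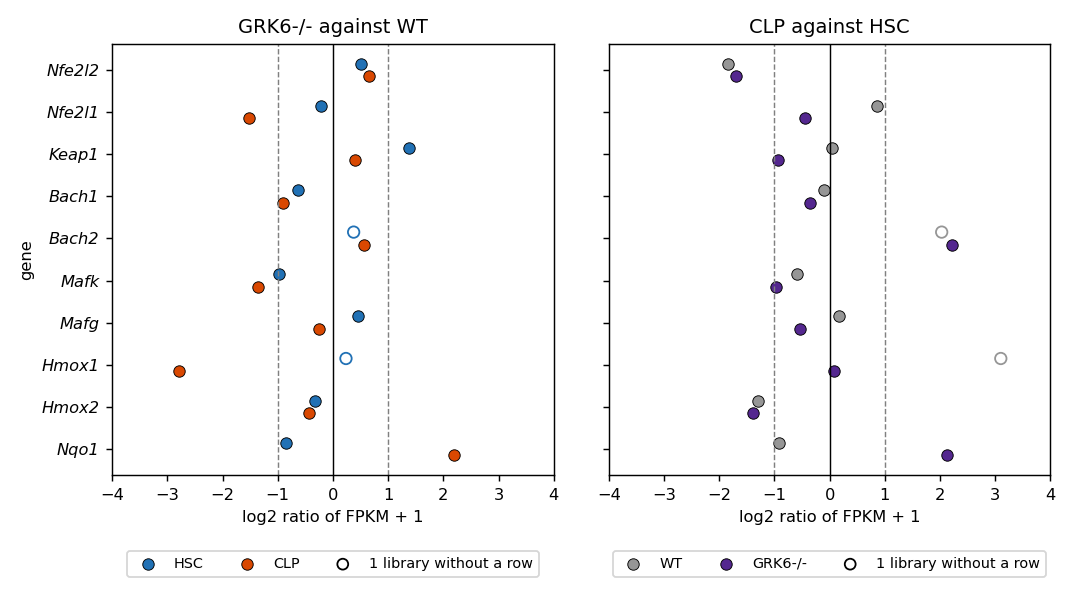
Log2 ratios of FPKM + 1 for each member, with GRK6-/- against WT on the left and CLP against HSC on the right. Each point compares 2 single libraries, open circles mark a comparison in which 1 library had no row, and dashed lines mark the 2-fold threshold. Keap1 passes it in HSC at 1.39, and Hmox1 at -2.79 and Nqo1 at 2.19 lie farthest apart in CLP.

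The wider pathway was read in 7 lists of 86 genes in all. In HSC, 21 of 64 genes with a value were called, 15 higher and 6 lower in GRK6-/-. In CLP, 29 of 65 were called, 17 higher and 12 lower. These shares, 32.8% and 44.6%, were below those of all genes, 37.4% and 50.0%. By direction, 19.3% of all genes were higher and 18.0% lower in HSC, and 26.6% and 23.4% in CLP. The count of each list is to be read against these shares of all genes.

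Among the NRF2 targets for glutathione and thioredoxin, 3 of 13 were called in HSC, all higher, and 5 of 13 in CLP, 2 higher and 3 lower. All genes gave 19.3% higher and 18.0% lower calls in HSC, and 26.6% and 23.4% in CLP. Gclm, the modifier subunit of the enzyme that begins glutathione synthesis, was at 17.6 FPKM (WT) and 302 (GRK6-/-) in HSC and 8.54 (WT) and 24.0 (GRK6-/-) in CLP. Its catalytic partner Gclc was at 11.8, 11.9, 19.7 and 26.1 FPKM in the same order. Gstm5, a glutathione transferase gene, was at 12.6, 103, 4.15 and 25.8 FPKM and was called higher in both populations. Gstm1, its relative, was at 129 and 122 FPKM in the HSC libraries and 62.4 in WT CLP and had no row in GRK6-/- CLP. Srxn1, whose product restores oxidised peroxiredoxins, was at 21.0 FPKM in WT CLP and also had no row in GRK6-/- CLP. Its higher call in HSC rested on 1.13 FPKM in GRK6-/- HSC, with the missing row in WT HSC counted as 0. Gene families such as the Gstm genes share sequence, so the split of reads between them is uncertain.

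Among the NRF2 targets for NADPH supply and detoxification, 3 of 12 genes were called higher and 2 lower in HSC, and 5 higher and 1 lower in CLP. Beside these, 19.3% of all genes were higher and 18.0% lower in HSC, and 26.6% and 23.4% in CLP. Abcc4, a drug and nucleotide exporter gene, was at 5.25 FPKM (WT) and 58.8 (GRK6-/-) in HSC and 5.22 (WT) and 18.1 (GRK6-/-) in CLP. Osgin1 was at 1.45 FPKM in WT CLP and 14.9 in GRK6-/- CLP. Sqstm1, which encodes the autophagy receptor p62 that also binds KEAP1, was at 42.8, 25.4 and 12 FPKM in WT HSC, GRK6-/- HSC and GRK6-/- CLP and had no row in WT CLP. Idh1, an NADPH-making dehydrogenase gene, was at 9.94 FPKM in WT HSC and 25.6 in GRK6-/- HSC. In CLP its values were 21.9 in WT and 8.33 in GRK6-/-, a call in the opposite direction. Ugdh was lower in HSC, with 17.5 in WT and 2.62 in GRK6-/-.

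Among genes that control KEAP1 and NRF2, 4 of 12 were called higher and 1 lower in HSC, and 1 of 13 higher and 4 lower in CLP. Of all genes, 37.4% and 50.0% were called in either direction. By direction, these were 19.3% higher and 18.0% lower in HSC, and 26.6% and 23.4% in CLP. Cul3, the scaffold of the ligase that KEAP1 serves, was at 12.7 FPKM (WT) and 38.2 (GRK6-/-) in HSC and 35.5 (WT) and 21.9 (GRK6-/-) in CLP. Its log2 ratio in HSC was 1.51, beside 1.39 for Keap1, while in CLP the 2 differed in sign, at -0.67 and 0.41. Rbx1, of the same list, was at -0.49 in HSC and -0.21 in CLP. Dpp3, whose product competes with NRF2 for KEAP1, was at 25.5 FPKM (WT) and 109 (GRK6-/-) in HSC and 14.5 (WT) and 23.0 (GRK6-/-) in CLP. Ep300, a coactivator gene, was at 0.269 FPKM in WT HSC and 10.8 in GRK6-/- HSC. In CLP, Skp1a was higher in GRK6-/-, with 27.2 against 7.80 FPKM, and Dcaf11 and Cul1 were lower, with 9.33 against 30.5 and 32.4 against 71.6.

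For NRF1, whose own gene was lower in GRK6-/- CLP, the list of its processing factors and proteasome targets held 1 higher call among 9 genes in HSC and 2 higher and 2 lower in CLP. Over all genes, 19.3% were called higher and 18.0% lower in HSC, and 26.6% and 23.4% in CLP. Vcp, the ATPase that pulls NRF1 from the membrane, was at 60.0 FPKM (WT) and 316 (GRK6-/-) in HSC and 338 (WT) and 71.2 (GRK6-/-) in CLP, called in opposite directions. Psmc4 was at 58.3 FPKM in the WT library of CLP and 6.50 in that of GRK6-/-, while Psmd4 was at 63.6 and 171. Of 4 relatives of the CNC and MAF factors, Maff was called lower in HSC, with 23.5 FPKM in WT and 9.35 in GRK6-/-, and had no row in WT CLP and 5.59 in GRK6-/- CLP.

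Heme and iron genes gave 4 higher and 1 lower call among 10 in HSC and 4 higher and no lower among 9 in CLP. Over all genes, 19.3% were called higher and 18.0% lower in HSC, and 26.6% and 23.4% in CLP. The 2 biliverdin reductase genes, which act after heme oxygenase, were called higher in both populations. Blvrb was at 20.6 FPKM (WT) and 313 (GRK6-/-) in HSC and 1.27 (WT) and 354 (GRK6-/-) in CLP, and Blvra at 12.6, 83.5, 16 and 46.7. The ferritin genes Fth1 and Ftl1, which store the iron that heme releases, were at 1535 to 2084 and 1045 to 1796 FPKM and were called in neither population. Por, the electron donor of heme oxygenase, was at 30.9 FPKM (WT) and 7.43 (GRK6-/-) in HSC, and Slc48a1, a heme transporter gene, at 26.5 in WT CLP and 74.0 in GRK6-/- CLP.

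Erythroid markers were read beside these heme genes. In HSC the median log2 ratio of GRK6-/- over WT was 0.135 for the heme and iron list and 2.13 for the erythroid markers. In CLP it was 0.846 and 4.82. Of 16 on the list, 9 had a row in each HSC library, 8 in the WT library of CLP and 10 in that of GRK6-/-, with summed FPKM of 350.4, 1749, 200.01 and 18238. Klf1, an erythroid factor gene, was at 3.88, 51.5, 0.160 and 73.3 FPKM and Hba-a2, an alpha globin gene, at 5.98, 53.2, 17.4 and 17220. Among the 10 erythroid markers with a value, 9 were called higher in GRK6-/- in each population, beside 19.3% of all genes in HSC and 26.6% in CLP. Blvrb is itself abundant in red cell precursors. The part of erythroid RNA in the heme gene values was not tested.

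For BACH2, the list of its regulators and targets had no higher and 1 lower call among 4 genes in HSC and 2 higher and 2 lower among 5 in CLP. The shares of all genes were 19.3% higher and 18.0% lower in HSC, and 26.6% and 23.4% in CLP. Ebf1, a B lineage factor gene, was at 25 FPKM in WT CLP and 82.0 in GRK6-/- CLP, without a row in HSC. Cebpa and Cebpb, myeloid factor genes that BACH2 represses, ran the other way in CLP. Cebpa was at 26.6 FPKM in WT CLP and 6.92 in GRK6-/- CLP, and Cebpb at 11.9 in WT CLP without a row in GRK6-/- CLP.

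**Figure D5:**
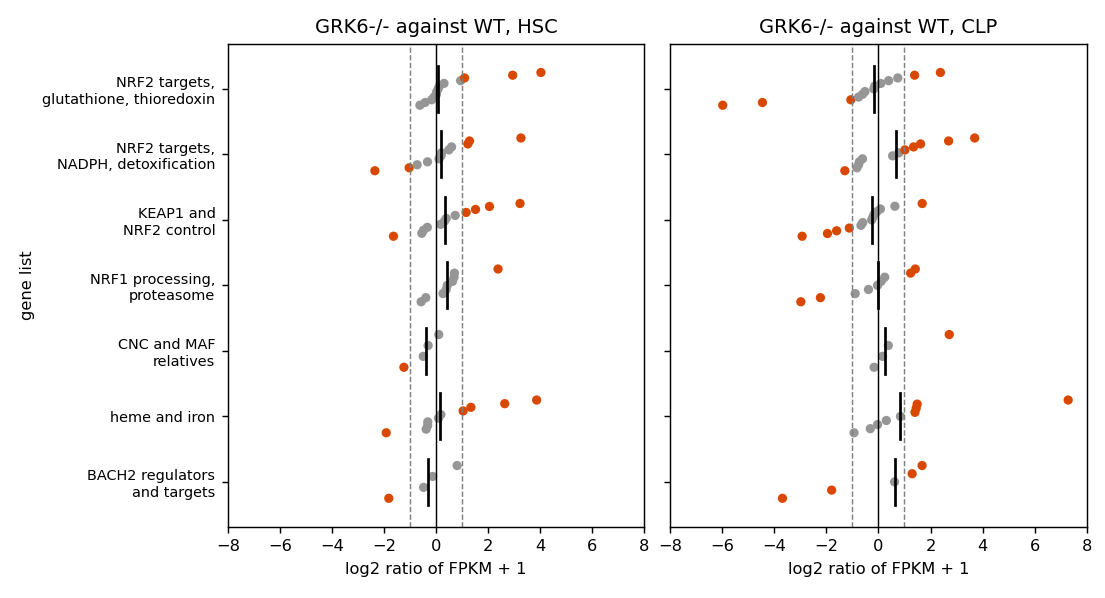
Log2 ratios of FPKM + 1, GRK6-/- against WT, for every gene of the 7 pathway lists with a value, in HSC on the left and CLP on the right. Each point is a gene, orange past the 2-fold threshold shown by dashed lines, and black bars are list medians. The points farthest from 0 are Gclm and Blvrb in HSC, at 4.03 and 3.86, and Blvrb and Gstm1 in CLP, at 7.29 and -5.99, the latter without a row in GRK6-/-.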

How the data were processed

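RNA of 4 pooled libraries was analysed, 1 per population and genotype. The authors deposited FPKM values per gene, aligned to mm9 with the Tuxedo suite (TopHat 1.4.0 in the submitters' processing notes). The annotation and quantifier settings are not given in the sources used here. Several rows under 1 symbol were added up, a missing row counted as 0, and 333 of 12750 names that occurred in joint rows were left out, a choice made after seeing the files. Ratios are log2 of FPKM + 1, and a call is a ratio of at least 1 in size. Depth was estimated from FPKM values under 0.3 of genes whose only annotated transcript was 1500 bp or longer. In each library 73.6% to 83.3% of these values lay within 10% of 1, 2 or 3 steps. The study describes far more reads than these fragments, so the estimates may be too low. Fragments of a member used its annotated transcript with the longest coding sequence. For Bach2, Mafk and Mafg the annotated bounds differ from the locus read, so the length behind their FPKM may be another one. Their fragments, floors and counting intervals are therefore less certain. Table starts count from 0, and coordinates are given from 1. The functions were tested on simulated data.

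The members and gene lists were chosen with earlier results of these data known. Named were all members, Grk6 and the stated markers. From each pathway list and population came up to 3 called genes with the largest ratio and an FPKM of at least 10. Gclc, Rbx1, Fth1, Ftl1, Notch1, Procr, Vpreb2, Cd79b, Cd14, Itgam, Vcam1, Cd68, Lyz2 and 5730403B10Rik were also named, chosen after their values were seen. Alternatives were the pseudocount, an FPKM filter, rescaling, a stricter threshold, the highest of several rows and, chosen after seeing the data, keeping joint rows. Tables were handled with pandas 2.3.3 and numpy 2.4.6 under Python 3.11.15, intervals came from scipy 1.17.1, and plots from matplotlib 3.10.9.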

Additional observations from a re-analysis of the deposited data

Results flagged for a closer look

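Nqo1 differed in opposite directions between groups that share a contrast. Its log2 ratio of GRK6-/- over WT was -0.849 in HSC and 2.191 in CLP, and its ratio of CLP over HSC was -0.911 in WT and 2.129 in GRK6-/-. Both pairs rest on the same 4 libraries, and on about 14 to 59 fragments per library. With 1 library per group the difference was not tested. Members without a row in 1 of the libraries were not compared in this way.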

How the results depend on the processing

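When 0.1 was added to FPKM instead of 1 (the pseudocount), the members called in HSC between genotypes rose from 1 to 5 of 10. The share of all genes called rose too, from 37.4% to 49.8%. Bach2 and Hmox1, without a row in WT HSC, joined through values of 10 fragments or fewer, and Mafk and Nqo1 passed the threshold at -1.05 and -1.07. The same pseudocount brought Bach1 in CLP to -1.04, Nqo1 between WT populations to -1.15 and Mafk between GRK6-/- populations to -1.14, and moved Bach2 between GRK6-/- populations from 2.22 to 3.70. With an absolute log2 ratio of at least 2, the members called between genotypes numbered 0 in HSC and 2 in CLP. Of all genes, 12.4% and 24.8% were then called. Between populations 2 members were called in each genotype, beside 20.5% (WT) and 19.1% (GRK6-/-) of all genes. The pathway genes called fell to 9 of 64 in HSC and 11 of 65 in CLP. At this threshold their share was above that of all genes in HSC and below it in CLP. Every other count stayed within 1.5 times its value under the FPKM filter, rescaling, the highest row per symbol and joint rows kept, and no called ratio among the 36 with a row in both libraries changed sign under the other pseudocount, rescaling or the highest row. No paired analysis was possible because the groups, with 1 library each, shared fewer than 2 replicate numbers, and a fit that pairs genotypes within populations, with 1 residual degree of freedom, was not run. Low members, Hmox1 and Nqo1 above all, are limited by depth.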
